A study of Mus musculus with 2 samples.

Results

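Among brain cells sampled 5 days into repopulation after microglial depletion, 111 cell barcodes carried the smallest share of cell cycle RNA, and this account describes their other RNA. They were taken from the Repop D5 library, in which 553 of 585 deposited barcodes had at least 500 genes and under 10% of UMIs (tags that each count 1 RNA molecule) from mt- genes. The 20% with the lowest summed share of UMIs from 20 cycle genes were chosen, which left 442 other Repop D5 barcodes, and the control library (CD) added 609 barcodes, giving 1162 in all. Ties went to the barcode with fewer summed UMIs and then to file order.

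Both libraries came from adult C57BL/6J mice, from CD11b+/CD45+ brain cells sorted by flow cytometry and prepared with the 10x Genomics droplet method. The Repop D5 library pooled 6 mice given PLX5622, an inhibitor of the receptor Csf1r, for 14 days and returned to control diet for 5 days. The CD library pooled 4 mice on control diet for 19 days. Each group is thus 1 library of pooled mice, barcodes are not replicates, no test was possible, and all intervals cover counting error only. The least-cycling and the other Repop D5 barcodes share a library, whereas the treatment and the library cannot be told apart against CD.

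Microglia are the resident macrophages of the brain and need signalling through Csf1r to survive. When the inhibitor is withdrawn after depletion, the surviving cells divide and refill the brain. A dividing cell copies its DNA in S phase with the Mcm helicase, Pcna and enzymes that make nucleotides, and separates its chromosomes in G2 and M phase with cyclin B, kinesins and kinetochore proteins. Resting cells keep these genes low, partly through repressor complexes on their promoters and through inhibitors of cyclin-dependent kinases.

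The values that chose the barcodes are given as a description. The cycle share ran from 0.0177% over a median of 0.148% to 0.185% in the least-cycling barcodes, from 0.186% over 0.410% to 1.22% in the other Repop D5 barcodes, and from 0% over 0.0607% to 2.35% in CD. The last 3 barcodes inside the limit were at 0.185147%, 0.185317% and 0.185422%, and the first 3 outside it at 0.186437%, 0.18797% and 0.188172%, so no gap separated the groups. Every chosen barcode held cycle RNA, with a median of 16 UMIs from the 20 genes, against 75 in the other Repop D5 barcodes and 4 in CD. Of the CD barcodes, 588 (96.6%) had a share at or under the highest one chosen. The median least-cycling barcode had a higher share than the median CD barcode. Summed over barcodes and scaled to the same total in each group (CPM), the 20 genes reached 1448 CPM in the least-cycling cells, 4645 CPM in the other Repop D5 cells and 717 CPM in CD.

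**Figure D1:**
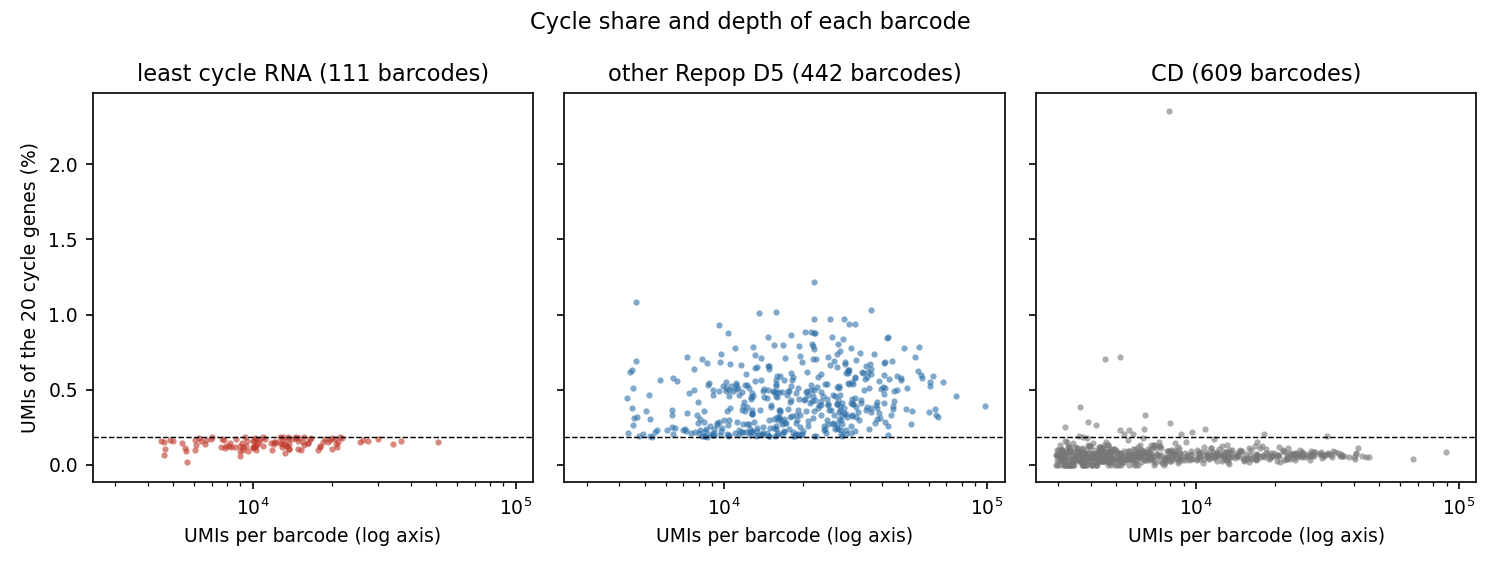
Share of UMIs from the 20 cycle genes (y, percent) against UMIs per barcode (x, log axis), 1 point per barcode, for the least-cycling Repop D5, other Repop D5 and CD barcodes. The dashed line is the highest share among those chosen, 0.185%, and 588 of 609 CD barcodes lie at or under it.

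The least-cycling barcodes were shallower than the others of their library. They held 1451237 UMIs in sum, and the median barcode had 11735 UMIs and 2904 genes. The other Repop D5 barcodes held 9586684 UMIs, at a median of 18287.5 UMIs and 3884 genes, and CD held 6055886 UMIs, at a median of 5982 UMIs and 2147 genes. Of the 111, 86 had fewer UMIs than the median of all 553, and across those 553 barcodes of 1 library the cycle share and the UMIs had a Spearman rho of 0.380. The median mt- share was 4.71%, 4.85% and 2.00% in the least-cycling, other Repop D5 and CD barcodes. Ratios are therefore also given against 111 other Repop D5 barcodes matched 1 to 1 on UMIs (median 11729). These were not matched on cell type. Neutrophil markers summed to 6818 CPM in the matched barcodes, 1928 CPM in all other Repop D5 barcodes and 3254 CPM in the least-cycling ones. The lists of the 2 libraries share 1 barcode, which is not among the 111.

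Single genes chosen by the rule differed in how far they were lower. H2afz, a histone variant, had 649.8 CPM in the least-cycling cells, 1629 CPM in the other Repop D5 cells and 401 CPM in CD. Mki67, a coat protein of mitotic chromosomes, had 36.5 CPM, 135 CPM and 1.49 CPM in the same order. Rrm2, a subunit of the enzyme that makes DNA building blocks, had 11.03 CPM in the least-cycling and 94.7 CPM in the other Repop D5 cells, and no UMI in CD.

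Cycle genes that the rule did not use were lower with them. A gene was counted as higher or lower when it had at least 10 CPM in one of the groups compared and a CPM ratio at or past 1.5-fold in that direction, with a 95% interval clear of 1. Of 41 G2 and M genes, 40 were lower in the least-cycling than in the other Repop D5 cells and 0 were higher. Of 36 S genes, 34 were measured, 32 were lower and 0 were higher. Over all 7536 measured genes, 972 (12.9%) were counted as lower and 311 (4.13%) as higher, and since the rule used this contrast nothing is read from the lists' shares. The list medians of log2((CPM + 1) over (CPM + 1)) were -2.08 for the G2 and M genes and -1.49 for the S genes, against -0.11 for all measured genes, and -1.89 and -1.09 against the matched barcodes. Against those, 729 of 7519 genes (9.7%) were lower and 257 (3.42%) higher.

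Among the genes with the lowest ratios, Hist1h2ap, a histone made in S phase, had 11.03 CPM in the least-cycling cells and 279 CPM in the other Repop D5 cells, a ratio of 0.0395 (0.0225 to 0.0642). Counts of this gene are uncertain, because histone genes have near-identical copies. Cks1b, a subunit of cyclin-dependent kinases, had 36.5 CPM in the least-cycling cells and 164 CPM in the others (ratio 0.223, 0.167 to 0.294), and 7.10 CPM in CD. Cenpa, the histone H3 of centromeres, had 30.3 CPM, 132 CPM and 11.6 CPM in the least-cycling, other Repop D5 and CD cells. The median barcode had no UMI of either gene among the least-cycling cells, against 129 CPM of Cks1b and 81.5 CPM of Cenpa among the others, though single least-cycling barcodes reached 432 CPM and 481 CPM. The other 12 genes named by the same rule had ratios between 0.146 and 0.234. They were Smc2 and Smc4 of condensin, Ccna2 (cyclin A2), Spc24 and Knstrn of the kinetochore, Tacc3 of the spindle, Racgap1 of cytokinesis, the kinase gene Pbk, the phosphatase gene Cdkn3, Cdca3, the histone methyltransferase gene Ezh2 and Ccdc34.

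Exceptions were few. Pttg1, which encodes securin, had 41.3 CPM in the least-cycling cells and 38.3 CPM in the other Repop D5 cells (ratio 1.08, 0.808 to 1.42), and 68.5 CPM in CD. Rfc2, a subunit of the clamp loader, had a ratio of 0.693 (0.551 to 0.862), short of the 1.5-fold limit. At the other end, Kif2c had 1 UMI in the least-cycling cells and 16.2 CPM in the others, a ratio of 0.0426 (0.00107 to 0.241). Of 18 chromatin proteins and tubulins outside the rule, 16 were lower, among them Ptma (1312 CPM in the least-cycling and 2221 CPM in the other Repop D5 cells) and Tubb5 (735 CPM and 1172 CPM), while Tuba1a had 223 CPM and 264 CPM. Over all measured genes 12.9% were lower. The rule used genes of the same kind, such as H2afz, so nothing is read from this list's share.

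Promoters of 3 of these genes and of Mxd4, a gene at the other end of the comparison, were searched for 4 motifs known from promoters of cycle genes or of Myc targets. They are the 120 bases before each start in RefSeq's GRCm38.p6 annotation, in capitals where TTTGAA (the core of the cell cycle homology region), CCAAT (the box bound by NF-Y), TTCCCGC (an E2F motif) or CACGTG (the E-box bound by Myc, Max and Mxd proteins) matches on either strand. In these stretches CCAAT matched in all 4, TTTGAA in Cks1b and Cdkn3, and TTCCCGC and CACGTG in none. Cks1b lies at chr3:89418292-89418411 on the minus strand, Cenpa at chr5:30666766-30666885 on the plus strand, Cdkn3 at chr14:46760421-46760540 on the plus strand and Mxd4 at chr5:34187711-34187830 on the minus strand.
Cks1b: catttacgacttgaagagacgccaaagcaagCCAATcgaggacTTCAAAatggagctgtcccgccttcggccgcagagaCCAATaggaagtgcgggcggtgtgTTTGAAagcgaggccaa
Cenpa: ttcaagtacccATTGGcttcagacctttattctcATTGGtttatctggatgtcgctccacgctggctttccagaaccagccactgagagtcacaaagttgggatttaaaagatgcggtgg
Cdkn3: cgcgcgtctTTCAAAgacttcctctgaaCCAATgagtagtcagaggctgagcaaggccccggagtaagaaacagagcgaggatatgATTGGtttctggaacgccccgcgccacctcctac
Mxd4: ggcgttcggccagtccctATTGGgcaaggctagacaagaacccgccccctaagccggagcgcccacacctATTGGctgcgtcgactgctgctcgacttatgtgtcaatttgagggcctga

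Over windows of 300 bases, from 250 before to 50 after each start, CCAAT was present in 15 of 19 promoters of the 20 rule genes (18 genes matched), in 8 of 10 promoters of the 15 lowest named genes (10 genes matched) and in 5 of 22 promoters of the 15 highest (12 genes matched). That is 78.9%, 80% and 22.7%, against 37.4% of all 32851 promoters. TTTGAA was in 36.8%, 70% and 18.2% of those 3 sets and in 17.9% of all promoters. TTCCCGC was in 10.5%, 0% and 4.55%, against 4.60% of all, and CACGTG in 5.26%, 10% and 22.7%, against 7.15% of all. No motif lies within another, though neighbouring matches can share an end base, a gene can have several promoters in these counts, and a match is a run of letters, not a measured binding site.

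As a list, genes of the G1 phase did not share the size of this difference, though the cyclin E genes among them were much lower. Ccnd1, cyclin D1, had 159 CPM in the least-cycling cells, 145 CPM in the other Repop D5 cells and 84.4 CPM in CD, and its ratio to the others was 1.10 (0.952 to 1.26). Cdk6, a kinase partner of cyclin D, had 93.7 CPM, 82.8 CPM and 65.2 CPM, whereas Cdk4, the other partner, was lower at 96.5 CPM against 147 CPM in the other Repop D5 cells. The cyclin E genes Ccne1 (4.82 CPM against 17.9 CPM) and Ccne2 (5.51 CPM against 22.8 CPM) were lower too. Of 8 such genes 4 were lower and 0 higher, with a list median of -0.48 that turned to 0.07 against the matched barcodes, where 1 of 7 was lower. Of all measured genes 12.9% were lower than in the other Repop D5 cells, and 9.7% than in the matched ones.

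Inhibitors of the cycle were mixed. Of 27 listed genes of inhibition and rest, 20 were measured, 4 were higher and 2 lower. Over all measured genes 4.13% were higher and 12.9% lower. Cdkn1a (p21) had 144 CPM in the least-cycling and 148 CPM in the other Repop D5 cells, a ratio of 0.976 (0.840 to 1.13), and 35.3 CPM in CD. Cdkn1b (p27) had 15.2 CPM, 16.5 CPM and 38.3 CPM in the 3 groups. Cdkn2c and Cdkn2d, inhibitors of Cdk4 and Cdk6, were lower in the least-cycling cells, with ratios of 0.360 (0.244 to 0.513) and 0.482 (0.330 to 0.683).

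Mxd4, a partner of Max that represses targets of Myc, was the gene of this list with the highest ratio. It had 91.6 CPM in the least-cycling cells, 46.6 CPM in the other Repop D5 cells and 81.1 CPM in CD. Its median over barcodes was 78.2 CPM in the least-cycling cells, 21.3 CPM in the others and 0 CPM in CD, and the highest barcodes reached 426 CPM, 481 CPM and 927 CPM, so the groups overlapped. The ratio to the other Repop D5 cells was 1.97 (1.61 to 2.39), and 2.02 (1.49 to 2.75) to the matched ones. Ypel3, a growth suppressor induced by p53, had 176 CPM in the least-cycling cells, 93.7 CPM in the other Repop D5 cells and 353 CPM in CD, a ratio to the others of 1.88 (1.63 to 2.16). Trp53inp1, another p53 target, had 13.1 CPM in the least-cycling and 6.78 CPM in the other Repop D5 cells.

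Of the 15 genes with the highest ratios among those at 50 CPM, 4 are described first, chosen after their values were seen. Apoe, the main lipid carrier of the brain, had 2755 CPM in the least-cycling cells, 842 CPM in the other Repop D5 cells and 7047 CPM in CD, a ratio to the others of 3.27 (3.15 to 3.40). Abca1, which loads cholesterol onto Apoe, had 71.0 CPM, 34.7 CPM and 199 CPM, a ratio of 2.04 (1.62 to 2.56). Trf, transferrin, which carries iron, had 276 CPM, 147 CPM and 899 CPM, a ratio of 1.88 (1.68 to 2.104). Sepp1, selenoprotein P, which carries selenium, had 633 CPM, 343 CPM and 2485 CPM, a ratio of 1.85 (1.71 to 1.99). In all 4 the least-cycling cells stood between the other Repop D5 cells and CD. Among others of the 15 given with a CD value, Ypel3 was also between, whereas Mxd4, Ak1 and Tmem176a were highest in the least-cycling cells. The CD values include 158 barcodes in clusters named for other cell types, 114 of them border macrophage-like, and their part in the CD levels of these genes was not tested.

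Besides Apoe, Abca1, Trf and Sepp1, the genes of the 15 had ratios between 1.80 and 2.09. Ak1, an adenylate kinase, had 76.5 CPM in the least-cycling cells, 36.6 CPM in the other Repop D5 cells and 37.8 CPM in CD. Tmem176a, a membrane protein of myeloid cells, had 349 CPM, 178 CPM and 305 CPM, and its barcode medians were 283 CPM, 135 CPM and 269 CPM. The others were Pnpla7, a lysophospholipase, Clec12a, an inhibitory lectin receptor, Hebp1, a haem-binding protein, Apobec1, an RNA editing enzyme, and Eva1b, Smim14 and Grina. Against the matched barcodes the 15 ratios ran from 1.40 for Apobec1 to 2.64 for Abca1, and that of Apoe was 2.06 (1.95 to 2.17). Apoe had 1338 CPM in the matched barcodes, which also held more neutrophil marker RNA than all the others. The part of depth and of cell makeup in the change of its ratio was not tested.

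**Figure D2:**
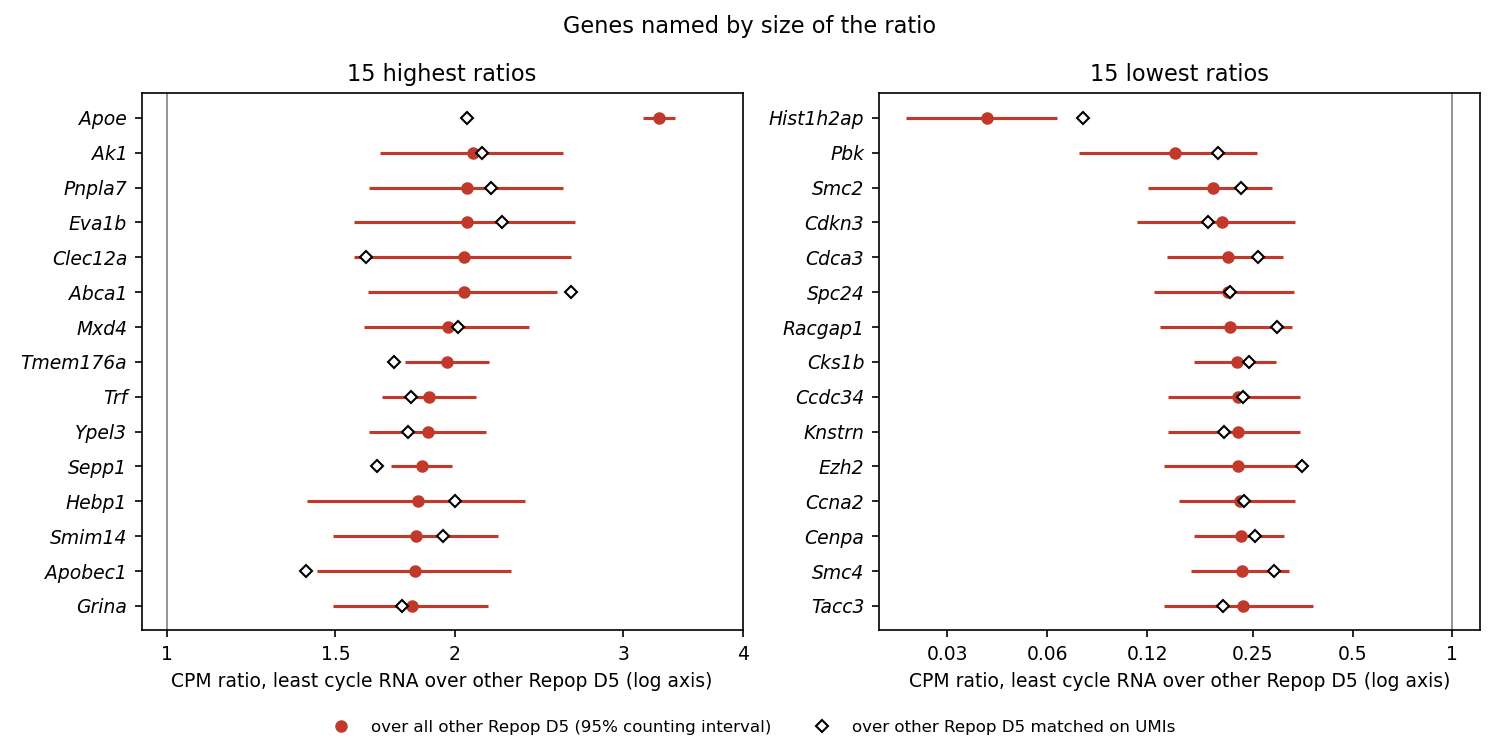
CPM ratio of the least-cycling over the other Repop D5 barcodes (x, log axis) for the 15 highest and 15 lowest genes at 50 CPM. Filled points are against all 442 others with the 95% counting interval, and open diamonds are against 111 others matched on UMIs. Apoe is at 3.27 against all others and 2.06 against the matched ones, and Hist1h2ap at 0.0395 and 0.0770.

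The 4 genes given as markers of these cells, which were chosen on these data, were all above 1 in ratio but mostly under the 1.5-fold limit. Besides Mxd4, Hacd4, an enzyme of very long fatty acid synthesis, had 109 CPM in the least-cycling cells, 73.6 CPM in the other Repop D5 cells and 59.6 CPM in CD, a ratio of 1.48 (1.24 to 1.76). Ramp1, a partner of the receptor for the peptide CGRP, had 77.2 CPM, 56.4 CPM and 71.0 CPM, a ratio of 1.37 (1.11 to 1.68). Gdpd3, a lysophospholipase D, had 62.7 CPM, 46.0 CPM and 26.1 CPM, a ratio of 1.36 (1.08 to 1.71). Against the matched barcodes these 3 ratios were 1.25 (0.980 to 1.59), 1.19 (0.899 to 1.59) and 1.14 (0.834 to 1.56), whose intervals include 1.

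The 111 barcodes were spread over several clusters when both libraries were clustered together, which used the same genes and is a description. Of 13 clusters, cluster 8, led by Pvrl2, Hacd4, Gdpd3, Ak1 and Ramp1, held 37 of them, 33.3% (24.7 to 42.9), and 28 of the others, 6.33% (4.25 to 9.03). Cluster 1, led by Fam19a1, Ch25h, Ass1, Nes, Mcm2 (a gene of the rule) and Slc2a6, held 31 least-cycling barcodes (27.9%) and 113 others (25.6%). Cluster 6, led by Plac8 and by interferon response genes such as Ifit1 and Isg15, held 31 (27.9%, 19.8 to 37.2) and 44 others (9.95%, 7.33 to 13.1), and stays unnamed because 2 monocyte markers, Plac8 and Ms4a4c, were among its 10 leading genes. Cluster 9, led by Tnf, Dusp2 and Cxcl10, held 7 and 52 others. Cluster 4, led by S genes, held 1 and 101 others, and cluster 5, led by mitotic genes, held 0 and 96 others, where 0 of 111, taken as a limit of 3 barcodes, allows a share of up to 2.70%. Ramp1 had 26.6 CPM in the least-cycling and 43.6 CPM in the other barcodes of cluster 1, and 105 CPM and 150 CPM in cluster 8. Hacd4 had 155 CPM and 167 CPM in cluster 8, which both genes lead, and was higher in the least-cycling barcodes of cluster 1. Both were higher in them in clusters 6 and 9, as was Gdpd3 in clusters 1, 6, 8 and 9.

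Apoe was spread unevenly over these cells. In cluster 6 the least-cycling barcodes had 6686 CPM of Apoe and the others 2699 CPM. In cluster 8 the values were 2005 CPM in the least-cycling and 861 CPM in the other barcodes, in cluster 1 they were 764 CPM and 537 CPM, and in cluster 9 they were 1016 CPM and 559 CPM. The median barcode had 461 CPM in the least-cycling cells and 398 CPM in the other Repop D5 cells, so the sums differed more than the typical barcodes, and the highest barcodes reached 42781 CPM and 57519 CPM. When the clustering was made finer, a monocyte-like cluster of 13 least-cycling and 36 other Repop D5 barcodes separated, and its 13 held 43.4% of the least-cycling cells' Apoe UMIs, 71.0% of their UMIs of Ccr2, the chemokine receptor of monocytes, and 54.4% of those of Clec12a. Without the clusters named for other cells in that finer clustering, the ratio to the other Repop D5 cells was 2.91 for Apoe and 1.35 for Clec12a, and without cluster 6 as well as the named clusters it was 1.94 for Apoe, 1.23 for Clec12a, 1.33 for Apobec1 and 1.35 for Smim14. The share of these differences that comes from monocyte-like cells was not tested further.

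Mxd4 and Ypel3 followed another pattern. In cluster 8, Mxd4 had 111 CPM in the least-cycling and 133 CPM in the other barcodes, and Ypel3 had 274 CPM and 324 CPM. In cluster 1, Mxd4 had 91.3 CPM and 51.9 CPM and Ypel3 93.2 CPM and 65.6 CPM in the same order, and in cluster 6 they had 81.7 CPM and 41.2 CPM, and 201 CPM and 116 CPM. In cluster 9, with 7 least-cycling barcodes, Mxd4 had 91.5 CPM and 54.1 CPM, and Ypel3 156 CPM and 104 CPM. The least-cycling barcodes thus had more of both genes in clusters 1, 6 and 9, and not in cluster 8. Mxd4 is among the 10 leading genes of cluster 8, so like levels of Mxd4 there follow in part from the grouping.

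Genes of resting, homeostatic microglia were slightly higher in sum. The 27 listed genes reached 32159 CPM in the least-cycling cells, 26270 CPM in the other Repop D5 cells and 108138 CPM in CD, and the median barcode gave them 3.34%, 2.61% and 11.6% of its UMIs. Of 26 measured, 5 were higher in the least-cycling than in the other Repop D5 cells, 0 were lower and 21 had a log2 ratio above 0, with a list median of 0.33. Over all measured genes 4.13% were higher and 12.9% lower, with a median of -0.11. The count of 5 was 3 against the matched barcodes, 2 in the lowest 30% by cycle share, 9 in the lowest 10% and 1 when S genes alone chose the barcodes. Cst3, cystatin C, made up much of the sum, with 10331 CPM in the least-cycling cells, 6657 CPM in the other Repop D5 cells and 64500.2 CPM in CD, and a ratio to the others of 1.55 (1.52 to 1.58). Crybb1 had 26.2 CPM, 9.39 CPM and 603 CPM, and Ecscr had 31.7 CPM, 15.5 CPM and 393 CPM.

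The usual marker genes of microglia moved little and not in 1 direction. P2ry12, a receptor for ADP, had 641 CPM in the least-cycling cells, 473 CPM in the other Repop D5 cells and 2988 CPM in CD, a ratio to the others of 1.35 (1.26 to 1.45). Tmem119 had 729.7 CPM, 836 CPM and 2021 CPM, a ratio of 0.872 (0.817 to 0.930), and Cx3cr1, the fractalkine receptor, had 1282 CPM, 1450.4 CPM and 5052 CPM, a ratio of 0.884 (0.842 to 0.928). Csf1r, the target of the inhibitor, had 1488 CPM, 1366 CPM and 3259 CPM. Sall1, a transcription factor of microglia, had 48.9 CPM, 53.3 CPM and 299 CPM.

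**Figure D3:**
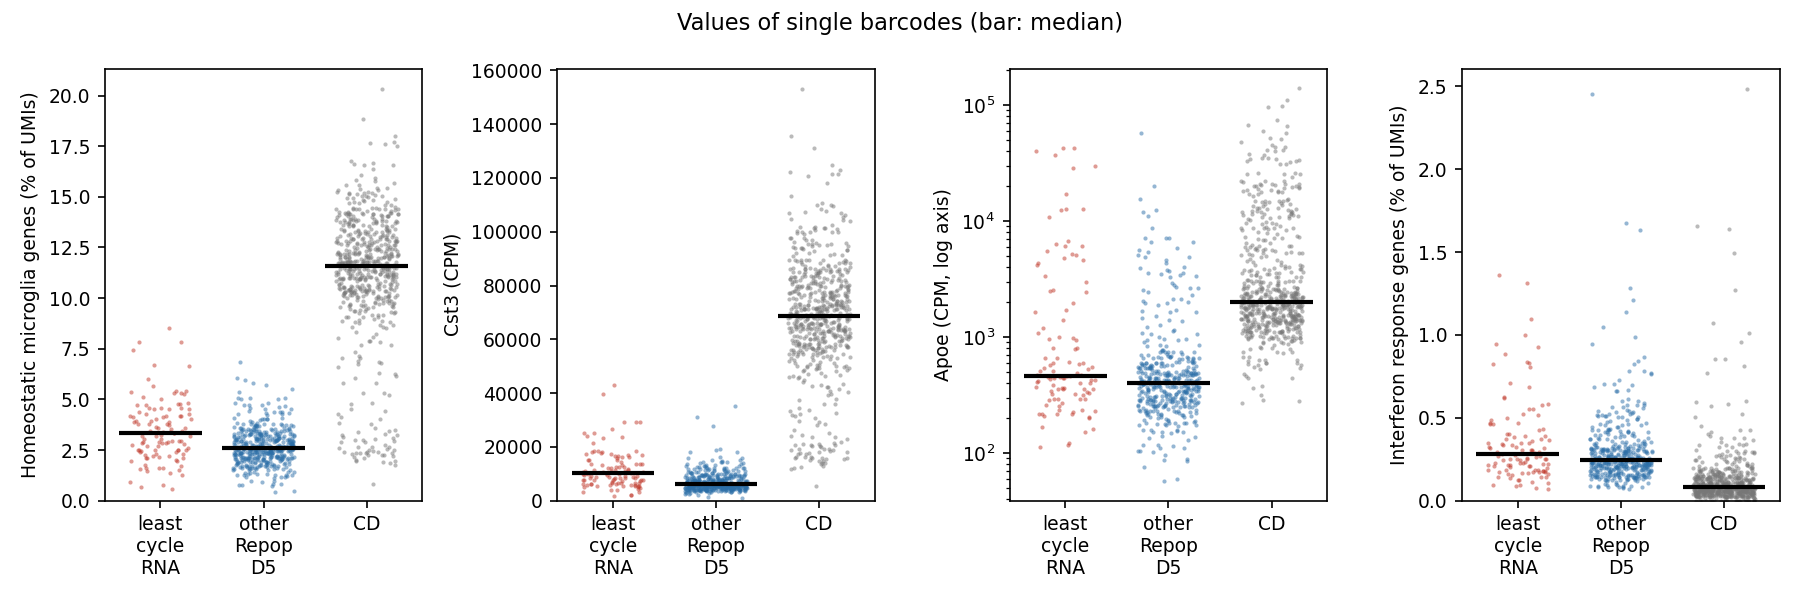
Values of single barcodes for the least-cycling, other Repop D5 and CD barcodes, with the bar at the median: share of UMIs from the homeostatic list (medians 3.34%, 2.61% and 11.6%), Cst3, Apoe (log axis, 1, 6 and 2 barcodes at 0 not drawn) and share of UMIs from the interferon list. The first 2 groups overlap in every panel.

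Of 15 myeloid transcription factor genes, 2 were higher and 1 lower in the least-cycling than in the other Repop D5 cells, with a list median of -0.02. With so few genes, and 4.13% of all measured genes higher and 12.9% lower, these counts are no result about the list. Cebpa had 107 CPM in the least-cycling and 69.7 CPM in the other Repop D5 cells, and Smad7, an inhibitor of TGF-beta signalling, had 59.9 CPM and 36.4 CPM. Cebpb, a factor of inflammatory activation, was lower, at 39.3 CPM against 65.5 CPM. Spi1 (PU.1), which defines the lineage, had 356 CPM and 376 CPM, a ratio of 0.948 (0.863 to 1.04).

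Of 26 lysosomal genes 1 passed the limit as higher and none as lower, which beside the 4.13% of all measured genes is no result about the list. Over the list 22 genes had a log2 ratio above 0, with a list median of 0.35 and a sum of 27579 CPM in the least-cycling, 20943 CPM in the other Repop D5 and 32175 CPM in CD cells. Ctsd, the protease cathepsin D, had 5723 CPM in the least-cycling cells, 3517 CPM in the other Repop D5 cells and 8517 CPM in CD, a ratio to the others of 1.63 (1.59 to 1.67), and Ctss, cathepsin S, had 4592 CPM, 3335 CPM and 5857 CPM. Of 26 genes of disease-associated microglia 22 were measured, 6 were higher and 0 lower, and Apoe, Ctsd and Igf1 were among the 6. Spp1 (osteopontin) and Lpl (lipoprotein lipase), of the same list, went the other way without passing the limit, Spp1 with 80.6 CPM in the least-cycling and 120.5 CPM in the other Repop D5 cells and Lpl with 116 CPM and 167 CPM.

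Interferon and antigen presentation genes differed between cells of the group. Of 28 type I interferon response genes 26 were measured, 8 were higher and 1 lower, with a list median of 0.35. This median was 0.39 against the matched barcodes and 0.56 without the clusters named for other cells in the finer clustering. Without the named clusters and cluster 6 it was -0.06, with 1 of 20 higher. Cluster 6 is led by genes of this list, so leaving it out removes barcodes high in them, and nothing is read from that change. Over all measured genes and all barcodes 4.13% were higher and 12.9% lower, with a median of -0.11. Stat2, a transducer of the interferon signal, had 21.4 CPM in the least-cycling and 8.55 CPM in the other Repop D5 cells (ratio 2.50, 1.60 to 3.82). Cxcl10, a chemokine of the same response, was lower, at 45.5 CPM in the least-cycling and 90.4 CPM in the other Repop D5 cells. Within cluster 6 the summed list had 5387 CPM in the least-cycling barcodes, against 2129 CPM, 3047 CPM and 3185 CPM in those of clusters 1, 8 and 9. The high sum in cluster 6 follows from the genes that lead it. Of 9 measured MHC class II genes 1 was higher and 2 lower, H2-Aa with 26.2 CPM in the least-cycling, 78.5 CPM in the other Repop D5 and 493 CPM in CD cells, and no UMI in the median barcode of any group. With so few class II genes, these counts are no result about the list. B2m, the shared chain of MHC class I, had 3902 CPM, 2845 CPM and 3383 CPM, and none of 11 class I genes passed the limit.

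Genes of growth were lower in the least-cycling cells. Of 22 measured nucleolar and growth genes 12 were lower and 0 higher, with a list median of -0.59 and sums of 2873 CPM in the least-cycling, 4042 CPM in the other Repop D5 and 1749 CPM in CD cells. Nop58, of the particles that modify ribosomal RNA, had 22.7 CPM in the least-cycling and 69.7 CPM in the other Repop D5 cells, a ratio of 0.326 (0.223 to 0.463), while Npm1, nucleophosmin, had 733 CPM and 820.4 CPM. Of 22 cholesterol synthesis genes 11 were lower and 0 higher, with a list median of -0.59. Both lists stand beside 12.9% of all measured genes lower and 4.13% higher, with a median of -0.11. Fdps, an enzyme of the mevalonate pathway, had 139.9 CPM in the least-cycling cells, 249 CPM in the other Repop D5 cells and 22.1 CPM in CD, and Sqle, which starts the sterol branch, had 33.1 CPM, 66.3 CPM and 2.48 CPM.

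Few genes of energy supply and protein turnover passed the limit. Of 14 glycolysis genes 1, Tpi1, passed the limit as lower, and 13 had a log2 ratio under 0. Of 36 nuclear genes of oxidative phosphorylation 1, Cycs (cytochrome c), was lower, with 157 CPM in the least-cycling and 284 CPM in the other Repop D5 cells, and 29 had a log2 ratio under 0. Of 23 proteasome subunit genes 3 were lower and 22 had a log2 ratio under 0. These counts stand beside the 12.9% of all measured genes counted as lower and are no result about the lists. Ribosomal protein genes went the other way without any of 79 passing the limit, with a sum of 235647 CPM in the least-cycling, 215217 CPM in the other Repop D5 and 106994 CPM in CD cells. The 13 mt- genes had a list median of -0.04.

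**Figure D4:**
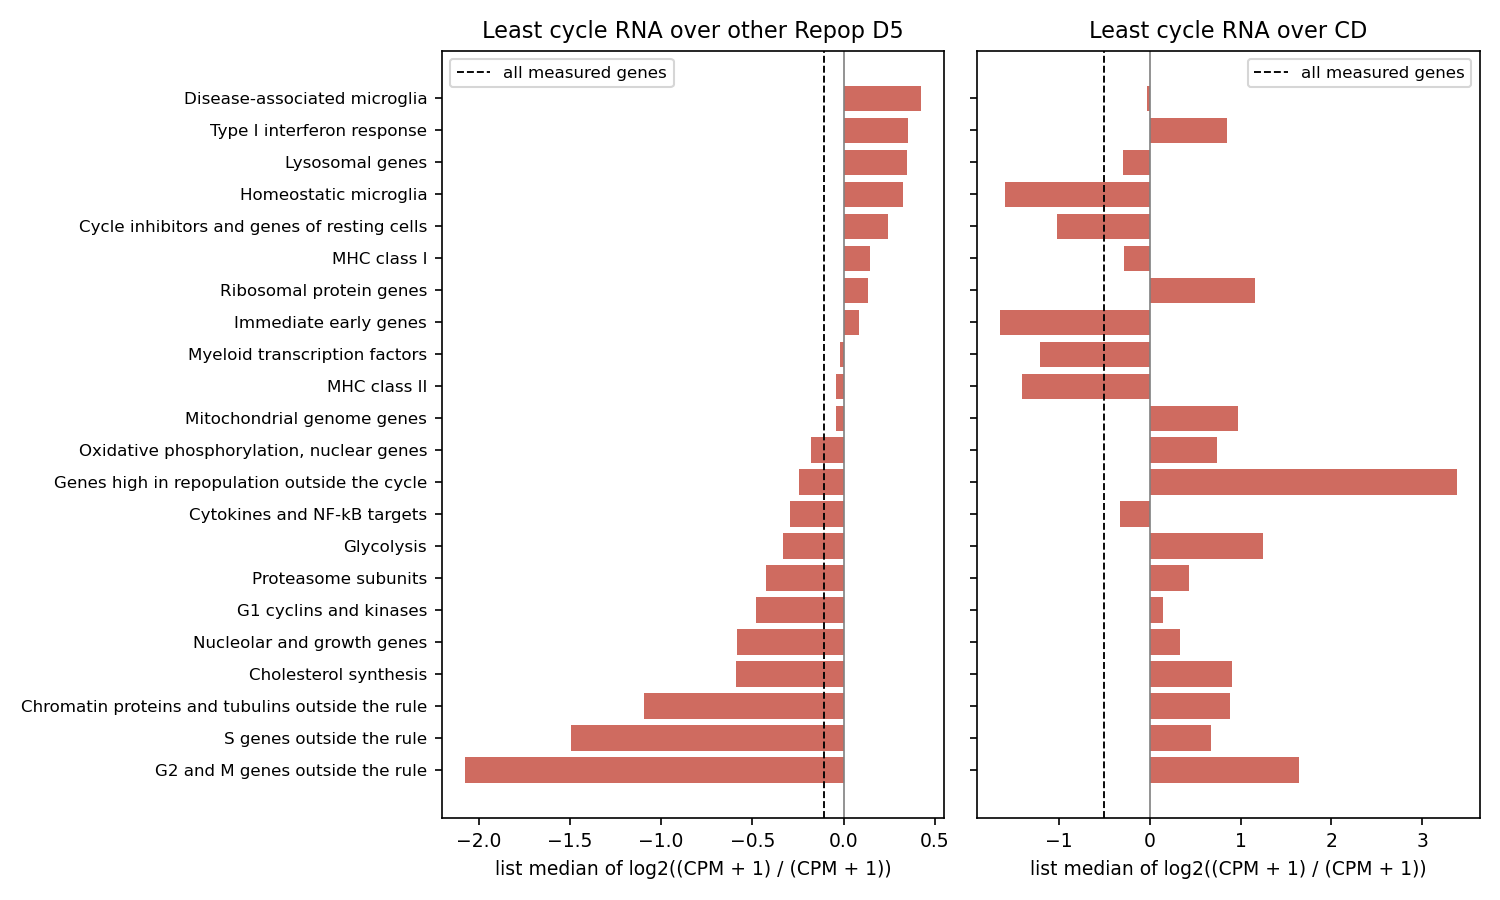
Median log2 CPM ratio (pseudocount 1 CPM) of each gene list for the least-cycling over the other Repop D5 barcodes (left) and over CD (right), with the median of all measured genes as a dashed line (-0.11 and -0.50). The G2 and M list is lowest on the left, at -2.08, and at 1.64 on the right.

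Ordering all 553 Repop D5 barcodes by cycle share and cutting them into 5 bands of like size showed whether the lowest band, the 111 barcodes, stood apart. From band 1 to band 5, homeostatic genes summed to 32159, 29207, 27274, 25543 and 24102 CPM, and lysosomal genes to 27579, 23966, 21724, 20155 and 18987 CPM. Mxd4 had 91.6, 77.9, 51.3, 32.0 and 35.2 CPM, Ypel3 176, 149.6, 95.9, 71.8 and 75.4 CPM, and Trf 276, 214, 141, 128 and 127 CPM. Both lists and Trf were lower in each further band, and for Mxd4 the step between bands 2 and 3 exceeded that between bands 1 and 2. Nucleolar and growth genes had 2873, 3391, 3916, 4360.2 and 4296 CPM. The G2 and M genes outside the rule had 569.9, 703, 1254, 2134 and 4058 CPM and the S genes 578, 744, 1364, 1834 and 1859.7 CPM, so band 2 was closer to band 1 than to band 3 in both. The interferon list had 3374, 3557, 2841, 2644 and 2646 CPM. The bands' median UMIs were 11735, 13369, 21286.5, 18040 and 22592, so depth moved with most of these orders, and its part in them was not tested beyond the matched comparison.

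**Figure D5:**
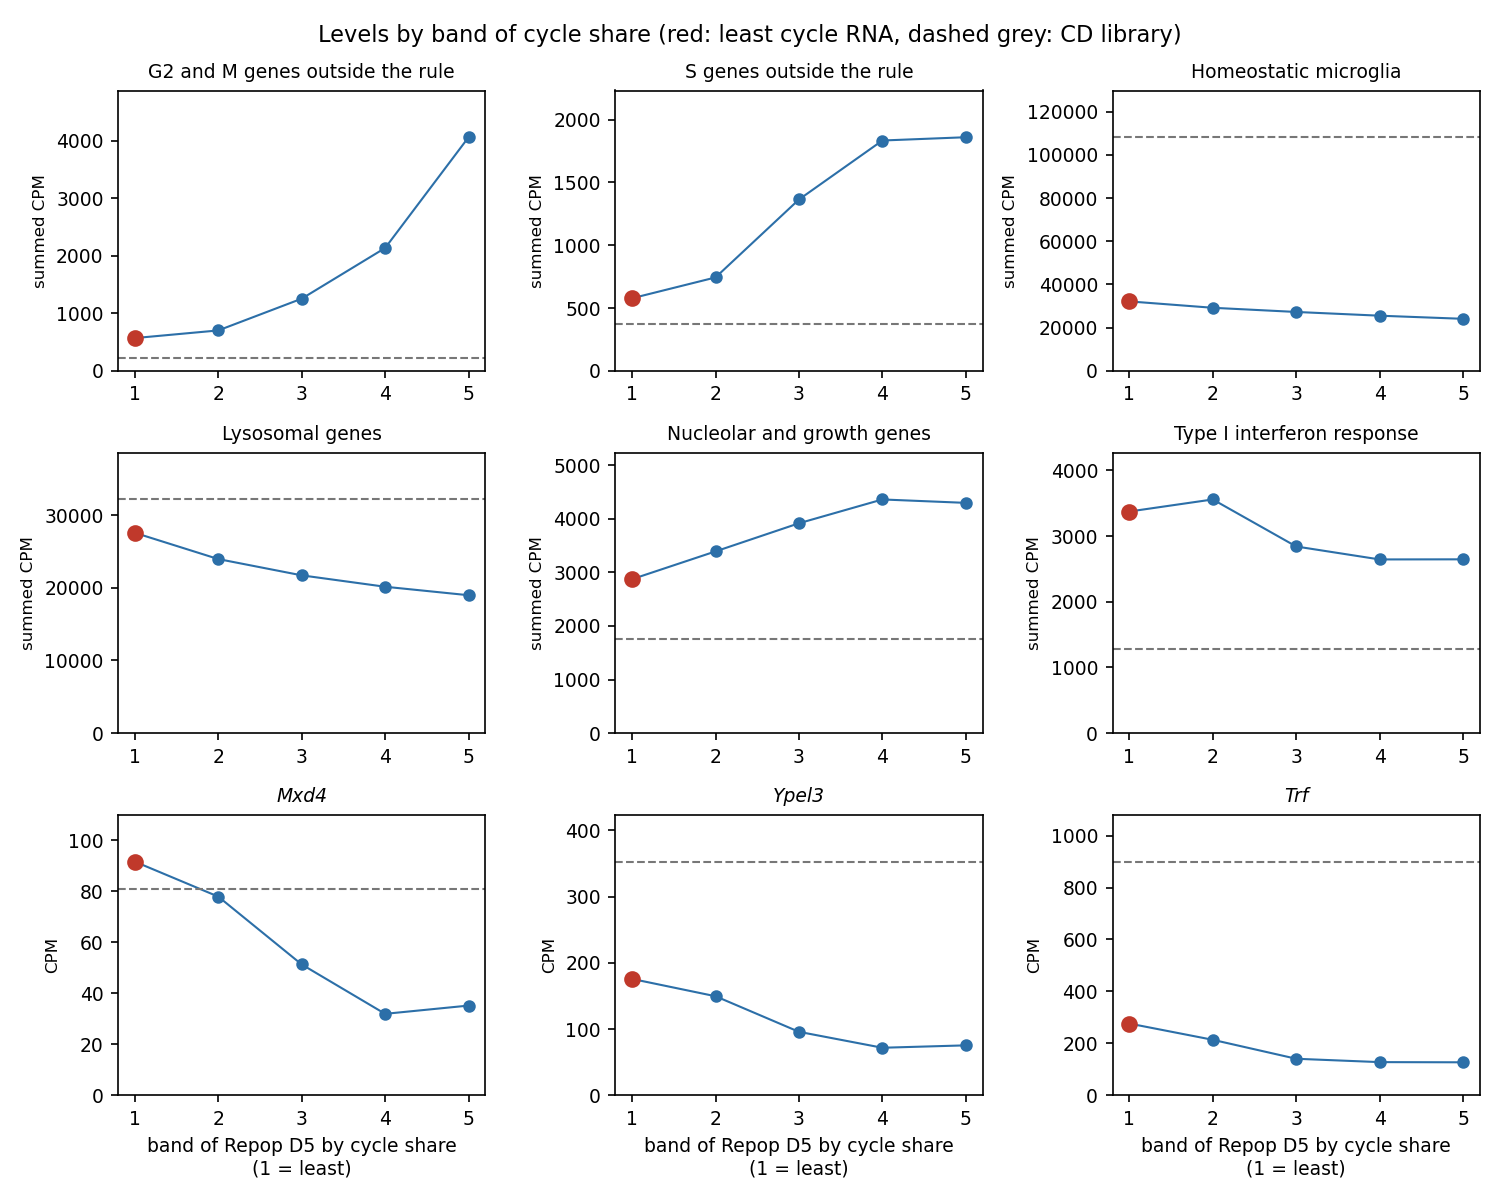
Summed CPM of 6 gene lists and CPM of 3 genes (y, from 0) in 5 bands of Repop D5 barcodes by cycle share (x, 1 the least, in red), with the CD library as a dashed line. Homeostatic genes go from 32159 CPM in band 1 to 24102 CPM in band 5, with CD at 108138 CPM.

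The least-cycling cells were also set against CD, where 1 library stands for each diet. Of 8321 measured genes 919 (11%) were higher and 3510 (42.2%) lower than in CD, with a median log2 ratio of -0.50. A gene near 0 in one of the groups enters these counts only if it is high in the other, so the counts of list members are descriptions. Trimmed-mean scaling shifted all log2 ratios by 0.41 and gave 1735 higher and 1780 lower genes, and totals without mt- and ribosomal protein genes shifted them by 0.29 and gave 1482 and 2293. Values here use all UMIs, and no list described against CD in what follows turned direction under either scaling.

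Genes far above CD in repopulation were so in both Repop D5 groups. Slc2a6, a sugar transporter, had 123 CPM in the least-cycling cells, 122 CPM in the other Repop D5 cells and 2.64 CPM in CD, a ratio to CD of 46.7 (28.0 to 83.4) and to the others of 1.01 (0.856 to 1.18). Ass1, an enzyme of arginine synthesis, had 80.6 CPM, 97.2 CPM and 1.82 CPM. Htra3, a secreted protease, had 156 CPM, 137 CPM and 3.63 CPM, and Ch25h, which makes 25-hydroxycholesterol, had 77.9 CPM, 72.9 CPM and 2.15 CPM. Spp1 had a ratio to CD of 37.6 (21.1 to 72.6). The other 5 of the 10 with the highest ratios to CD, Capg, Ccdc109b, Kcnn4, Cyp4f18 and Vim, were between 10.7 and 15.4 times the CD level. Of the 17 genes of the repopulation list, which was chosen on these data, 15 were higher than in CD and 1, S100a11, was lower. Without the clusters named for other cells, 15 were higher and 0 lower. Over all measured genes and all barcodes 11% were higher and 42.2% lower than in CD.

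Homeostatic genes stayed far under CD. None of 27 was higher than in CD and 22 were lower, with a list median of -1.60, and -1.19 under trimmed-mean scaling. Over all measured genes 11% were higher and 42.2% lower than in CD. Crybb1, at 26.2 CPM in the least-cycling cells and 603 CPM in CD, was 23.02-fold lower (16.7 to 32.6). Lag3, an immune checkpoint receptor, was 41.5-fold lower (23.1 to 83.2), with 7.58 CPM in the least-cycling cells, 5.22 CPM in the other Repop D5 cells and 314 CPM in CD. Slc1a3, a glutamate transporter, had 5.51 CPM, 4.07 CPM and 167 CPM, and Csmd3 had no UMI in the least-cycling cells, where 3 counts are 2.07 CPM, and 71.5 CPM in CD. Mrc1, a marker of border macrophages, had 6.89 CPM, 13.6 CPM and 184 CPM, and 114 CD barcodes and none of either Repop D5 group lay in a border macrophage-like cluster, so cell makeup differs as well. The others of the 10 lowest were Tnfrsf17, Sult1a1, Mlph, Cask and Tgfa.

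Immediate early genes, the first to be transcribed after a stimulus, were also lower than in CD in 17 of 19 measured, with a list median of -1.65. Jun had 259 CPM in the least-cycling cells, 233 CPM in the other Repop D5 cells and 1835 CPM in CD. Of the 77 cycle genes outside the rule, 38 reached 10 CPM in the least-cycling cells or CD, and of these 27 were higher than in CD and 3 lower. The other 39 were under 10 CPM in both groups, and genes near 0 in CD could be measured only by being high in the least-cycling cells. The 77 genes summed to 1148 CPM in the least-cycling cells and 587 CPM in CD, with Ccna2 at 18.6 CPM in the least-cycling cells and 0.661 CPM in CD. Cholesterol synthesis genes, though lower than in the other Repop D5 cells, were higher than in CD in 14 of 19 measured and lower in 0. Interferon genes were higher than in CD in 17 of 26 and lower in 1, and ribosomal protein genes in 76 and 0 of 79. These counts stand beside 11% of all measured genes higher than in CD and 42.2% lower.

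Markers of other cells were summed in each group. Microglia markers reached 13967 CPM in the least-cycling cells, 12707 CPM in the other Repop D5 cells and 30362 CPM in CD, and all 11 were measured. Neutrophil markers had 3254 CPM, 1928 CPM and 13134 CPM, 39.3% of the least-cycling sum came from 1 barcode, and without the named clusters the sums were 794 CPM, 855 CPM and 2367 CPM. Monocyte markers had 340.4 CPM, 330.04 CPM and 373 CPM, and border macrophage markers 135 CPM, 114 CPM and 1005 CPM. What part these cells have in the differences was not tested beyond the values given without their clusters. Endothelial markers had 132 CPM, 22.5 CPM and 69.4 CPM, with 86.4% of the least-cycling sum in 1 barcode. T cell, NK, B cell, mast, erythroid and ependymal markers stayed at or under 4.82 CPM in the least-cycling cells, with no UMI of any of 6 mast and 5 ependymal markers. In the main clustering 3 of the 111 barcodes, 2.70% (0.561 to 7.70), lay in neutrophil-like or endothelial-like clusters, against 6 of the other Repop D5 barcodes (1.36%). Without those clusters 287 genes (3.83%) were higher and 977 (13%) lower than in the other Repop D5 cells.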

How the data were processed

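The values used are UMI counts per gene and barcode, which the authors deposited as 2 matrices of 27998 genes; per the submitters' processing notes they were made with Cell Ranger 2.1.0 on mm10. Per the labels' protocols, tissue was digested with papain, cleared of debris with Percoll and sorted without dead (7-AAD) cells, and libraries were sequenced on an Illumina HiSeq. Each group is 1 library; the authors' pooled matrix of both was used as an alternative only.

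Counts were summed over the barcodes of a group and scaled to CPM. Ratios have exact conditional binomial 95% intervals, and shares Clopper-Pearson ones. Genes of 10 CPM or more in either group were measured, list medians used log2(CPM + 1), and 0 UMIs were read as a floor of 3 counts. The members and all gene lists were chosen with earlier results of these data known. Named genes were the 15 highest and 15 lowest ratios to the other Repop D5 barcodes, and the 10 and 10 to CD. They were taken among genes at 50 CPM in one of the groups with an interval clear of 1. Left out were rule, mt-, ribosomal protein, haemoglobin, Xist, Tsix and Y-linked genes, pseudogenes, and predicted or clone-named genes (such as Gm and Rik). Genes seen in under 10% of the higher group's barcodes, or with over 20% of its UMIs in 1 barcode, were left out too. Genes given as list examples were picked after their values were seen. Clusters came from scanpy 1.11.5 and leidenalg 0.10.2 (2000 variable genes, 30 components, 15 neighbours, resolution 1) on all barcodes of both libraries, and a name needed 3 markers. Doublets were not removed; Scrublet called 12 of 553 Repop D5 barcodes, 0 of them among the 111, and 3 of 609 in CD. The 609 CD barcodes all passed the filter, and 32 Repop D5 barcodes were left out. Ratios and intervals were checked on simulated counts. Python 3.11.15, numpy 2.4.6, scipy 1.17.1 and matplotlib 3.10.9 were used.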

Additional observations from a re-analysis of the deposited data

How the results depend on the processing

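Matching on UMIs, leaving out cluster 6, and leaving out the clusters named at resolution 2 were chosen after seeing the data. Choosing on thinned counts kept 106 of the 111 barcodes, on G2 and M genes alone 98, and on S genes alone 52. Of the 311 genes higher than in the other Repop D5 cells, a minimum of 50 CPM left 66, no minimum 470 and a 2-fold limit 110; of the 972 lower, 50 CPM left 315 and 2-fold 435. Of 919 higher than in CD, trimmed-mean scaling gave 1735, totals without mt- and ribosomal genes 1482, 50 CPM 540 and 2-fold 532, and of 3510 lower, 1780, 2293, 1347 and 2182. The 72 lower cycle genes were 26 at 50 CPM and 61 to 75 elsewhere. The 5 higher homeostatic genes were 9 in the lowest 10%, 2 in the lowest 30%, 3 with G2 and M genes alone, 1 with S genes alone, 2 at 50 CPM, 2 at 2-fold, 3 against matched barcodes and 8 without the named clusters of resolution 2. The share in clusters of other cells, 2.70%, was 44.4% with barcodes of 1000 genes and under 5% mt- UMIs, 0% in the lowest 10% and 14.4% at resolution 2. Among list medians not close to 0, those that reversed were MHC class I (0.12), chemokine and cytokine (0.071) and lysosomal genes (0.11) against CD under trimmed-mean scaling, G1 genes against matched barcodes (0.066) and interferon genes without named clusters and cluster 6 (-0.063). Cluster 6 is itself led by interferon genes. Medians closer to 0 also turned: disease-associated genes against CD, at -0.03, were at 0.38 under trimmed-mean scaling and 0.26 with totals that omit mt- and ribosomal genes; against the other Repop D5 cells MHC class I, at 0.15, was at -0.04 without cluster 6, immediate early genes, at 0.08, at -0.04 against matched barcodes, and myeloid factors, MHC class II and mt- genes, at -0.02, -0.04 and -0.04, at 0.04, 0.01 and 0.01 under trimmed-mean scaling. With S genes alone the log2 ratio of Knstrn, otherwise well below 0, was 0.079, and 28 more of 66 named gene ratios left their counting interval, against 15 of 65 without cluster 6 and 11 of 47 against matched barcodes. The cause of these changes was not tested. Counts under about 10 UMIs limit single cycle genes in the least-cycling cells. No paired analysis was possible because each group is 1 library, and the shared replicate number joins nothing.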
